A study of Saccharomyces cerevisiae with 5 samples.

Results

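The genes described here build the yeast peroxisome and run its fatty acid breakdown. They are the 28 genes of the deposited tables whose symbol is PEX and a number, together with POX1, FOX2, POT1, PXA1, PXA2 and FAA2, which makes 34 of the 5886 genes listed. The libraries are messenger RNA sequencing of Saccharomyces cerevisiae, with 3 from a SUL1 knockout and 2 from the wild type, each titled as a biological replicate. SUL1 encodes a sulfate permease with high affinity for its substrate, and the study asked how its loss extends replicative lifespan. The knockout titles name BY4741, a widely used haploid strain (MATa), as the background, the wild-type files are named for the same strain number, and all 5 samples carry the strain label S288C. Every culture grew at 30 °C in YPD, which is made with 2% peptone, 1% yeast extract and 2% glucose. The series describes exponential cells, but an optical density at 600 nm (0.6) is given for the knockout only. The design text counts 3 replicates in each group, of which 2 of the wild type were analysed here.

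Peroxisomes are single-membrane organelles that in yeast house the whole of fatty acid beta-oxidation. Their enzymes are made in the cytosol, recognised there by receptors and pulled through the membrane while folded, and the receptors are then tagged with ubiquitin and taken back out. Yeast on glucose needs few peroxisomes, and the beta-oxidation genes are held down by glucose. On oleate they are switched on by the Oaf1-Pip2 pair of transcription factors, which binds an oleate response element, and by the activator Adr1.

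The oleate response element is shown first because its presence divides the members. It was searched on both strands in the 500 bases before the start codon, in build R64, as CGGNNNTNA followed by 9 to 12 bases and CCG. A match was found before 9 of the 34 members (26.5%) and before 111 of 5881 genes with such a window (1.89%). All 3 beta-oxidation enzymes, PXA2 and FAA2 held a match, as did 4 PEX genes. The 11 matches are given 5′ to 3′ on the strand of the gene, with the fixed letters of the element, in either orientation, in capitals.
POX1, upstream copy: CGGtattagttgatTaAactCCG
POX1, downstream copy: CGGtcattagcggcTaAtagCCG
FOX2, upstream copy: CGGaagcctagttTtAagtCCG
FOX2, downstream copy: CGGggaaatttgTtAacgCCG
POT1: CGGggataatagtaTtAacaCCG
PXA2: CGGcgtTaAttacaactatcaCCG
FAA2: CGGaccgtcagtctTtAacgCCG
PEX11: CGGcatTtAtctcggagaacCCG
PEX5: CGGatcatcgcgaTtAactCCG
PEX13: CGGgccaaattttttTtAtttCCG
PEX6: CGGcgaTaAtcgtcaacacttCCG

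The POX1 copies lie at chrVII:107846-107868 and chrVII:107883-107905 on the forward strand, 312 to 290 and 275 to 253 bases before the start codon. The FOX2 copies lie at chrXI:457337-457358 and chrXI:457305-457325 on the reverse strand. The POT1 match is at chrIX:41610-41632 and the PEX11 match at chrXV:48756-48778, both on the reverse strand. The FAA2 match at chrV:184355-184377 lies inside the annotated gene BUD25, and the other 10 lie in no other annotated gene. Among the 14 auxiliary genes of beta-oxidation and fatty acid handling, 7 also held a match, including the peroxisomal catalase gene CTA1 (CGGctttaacaaataTaAactCCG, chrIV:969866-969889, reverse strand). The regulator gene PIP2 held a match as well (CGGaactaaataTaAtctCCG, chrXV:1023348-1023368, reverse strand). The core TTGGGG or TTGGAG bound by Adr1 was before 14 members (41.2%) and 26.2% of all genes. The stress response element AGGGG, bound by Msn2 and Msn4, was before 7 members (20.6%) and 34.1% of all genes. A match is a description of letters and does not show binding.

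No member was called between the genotypes. FPKM, fragment counts scaled by gene length and library size, were tested with limma on log2(FPKM + 1), and 0 of 34 members had a Benjamini-Hochberg adjusted p under 0.05, against 15 of 5712 genes tested (0.263%). No member had an unadjusted p under 0.05 either, against 1060 of all genes (18.6%), and the smallest adjusted p of a member was 0.306 (limma). All 34 members passed the filter of a mean of at least 1 FPKM. The median log2 fold change, knockout minus wild type, was -0.03 over the members and -0.07 over all genes tested, with 13 members positive and 21 negative. The 95% interval of the log2 fold change lay within 1 on either side for all 34 members, as for 94.0% of all genes. It lay within a 1.5-fold change for 31 of 34, as for 71.4% of all genes. PEX9 and PEX34 were among the exceptions, and over all members the bounds ran from 0.576-fold to 1.57-fold. A pseudocount of 1 understates the change of low genes, and with a pseudocount of 0.1 the bound of PEX9 widened to 0.478-fold.

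The summed level of the 34 genes was 1076, 1117 and 1074 FPKM in knockout 1, 2 and 3 and 1105 and 1033 FPKM in wild type 1 and 2. The groups overlapped, with means of 1089 ± 24.5 (SD, n = 3) and 1069 ± 51.2 (SD, n = 2). SUL1 itself, the check of the genotype, was listed at 0 in all 3 knockout libraries and at 8.28 and 9.78 FPKM in the wild type. MET17, which BY4741 lacks, was listed at 0 in all 5. Depth, as estimated from low FPKM values, was 22400000 to 24850000 fragments per library, so the lowest member count in a library, for PEX18, was about 77 fragments with a counting error of 11.4%. Beyond these titles nothing says that replicates came from separate cultures, so p-values measure the spread between these libraries, which may be technical. Levels come from whole cultures, in which fewer cells expressing a gene and less RNA per cell cannot be told apart.

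**Figure D1:**
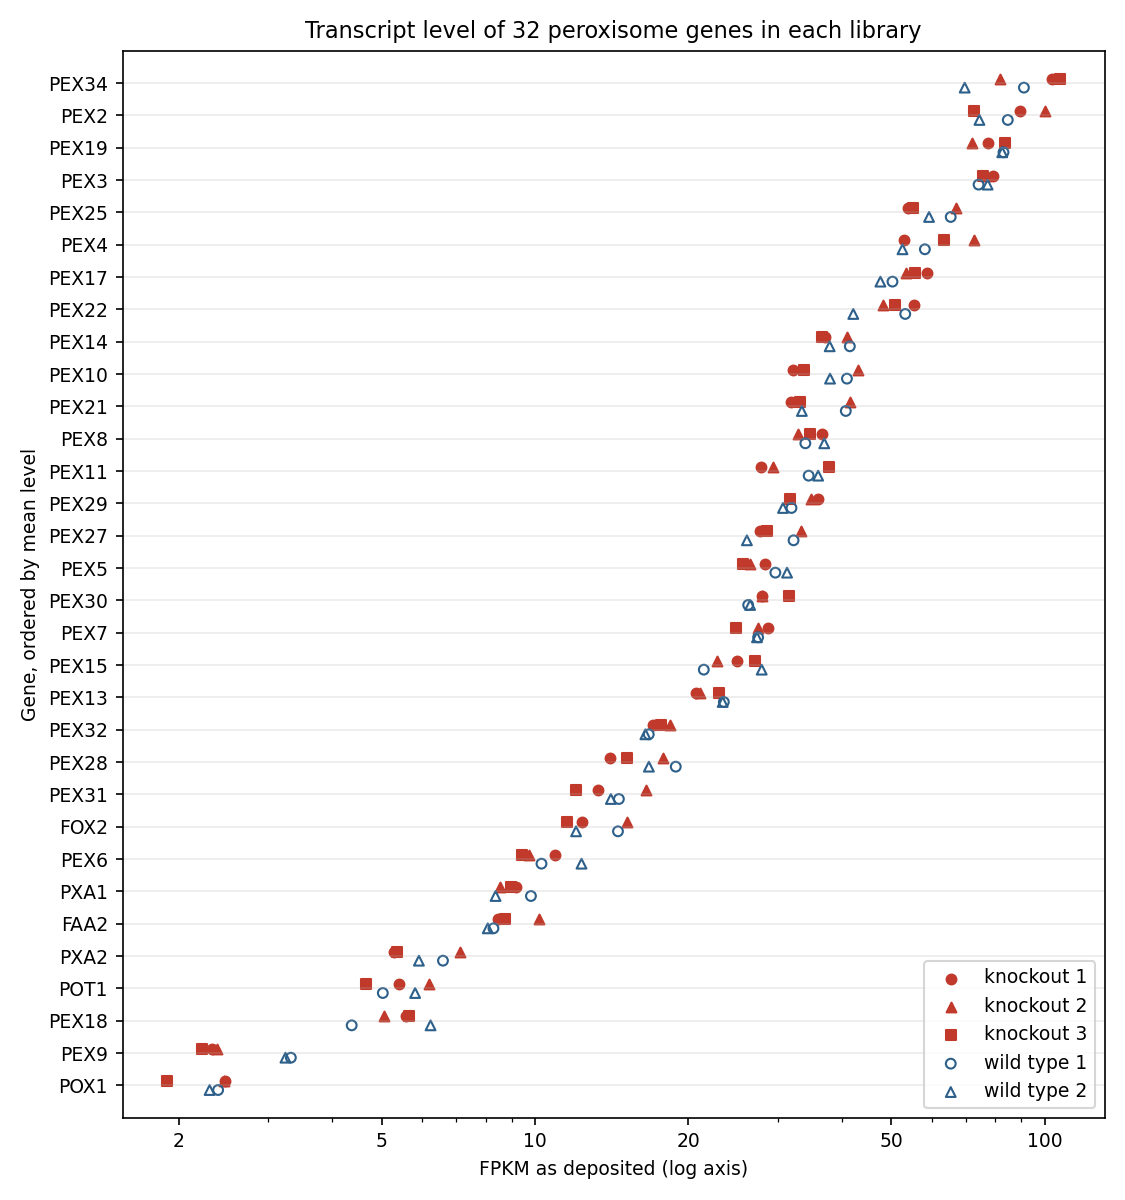
FPKM of 32 of the 34 genes (vertical axis, ordered by mean level) in each library on a log axis; filled red symbols are the 3 knockout libraries and open blue symbols the 2 wild-type libraries. Levels run from about 2.30 FPKM for POX1 to 90.6 FPKM for PEX34. The genotypes overlap or lie close together, apart from PEX9 at 2.22 to 2.38 FPKM in the knockout and 3.24 and 3.32 in the wild type.

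Levels covered a wide range within the module. The mean over the 5 libraries was lowest for POX1 at 2.30 ± 0.23 FPKM and highest for PEX34 at 90.6 ± 15.5 FPKM (SD, n = 5 for both). The 6 genes of beta-oxidation and fatty acid entry had a median of 7.41 FPKM, the 28 PEX genes 32.3 FPKM and all genes tested 43.0 FPKM. In the order of levels, neighbouring genes had overlapping ranges over the 5 libraries in 28 of 33 cases. At 3 places every gene above was apart from every gene below, namely below PEX13, below FAA2 and below PEX18. Thus PEX9 and POX1 lay apart at the bottom, while no such set stood at the top, where PEX4 reached 72.8 FPKM and PEX34 went down to 69.7.

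The beta-oxidation enzymes overlapped between the genotypes. POX1 (chrVII:108158-110404), the acyl-CoA oxidase of the initial step, had 2.47, 2.45 and 1.9 FPKM in knockout 1, 2 and 3 and 2.39 and 2.30 in the wild type. FOX2 (chrXI:454352-457054), the multifunctional enzyme of the middle steps, had 12.4, 15.2 and 11.6 against 14.6 and 12.04 FPKM. POT1 (chrIX:40191-41444), the thiolase that ends each cycle, had 5.41, 6.19 and 4.67 against 5.03 and 5.82 FPKM. For all 3 the wild-type values lay inside the range of the knockout libraries. The log2 fold changes were -0.04 ± 0.20, -0.03 ± 0.16 and -0.00 ± 0.17 (SE), with adjusted p of 0.934, 0.929 and 0.990 (limma). Their 95% intervals ran from -0.51 to 0.43, from -0.40 to 0.34 and from -0.41 to 0.40. In FOX2 and POT1 the highest reading of all 5 libraries was that of knockout 2. FOX2 stood at 5.01 to 6.18 times the level of POX1 in the 5 libraries.

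Of the genes that bring fatty acids into the peroxisome none was called. PXA1 and PXA2 encode the subunits of the transporter that carries long-chain acyl-CoA across the membrane. PXA1 had 9.20, 8.54 and 8.98 FPKM in the knockout and 9.82 and 8.37 in the wild type. PXA2 had 5.30, 7.14 and 5.36 against 6.60 and 5.92 FPKM. The groups overlapped for both, and PXA1 stood at 1.20 to 1.74 times PXA2. FAA2, which activates medium-chain fatty acids inside the organelle, had 8.45, 10.2 and 8.75 against 8.29 and 8.08 FPKM. All 3 knockout libraries read above both wild-type ones, and the difference was 0.14 ± 0.14 on the log2 scale (SE, limma, adjusted p = 0.598). BUD25 overlaps FAA2 by 160 of its 2235 bp on the opposite strand, and since the strand setting is not given its reads cannot be told apart there. No other member overlaps an annotated gene.

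The cargo receptors held the most negative value of the module. PEX9 (chrXIII:310208-311752), a receptor for the peroxisomal malate synthases that is made on oleate, had 2.33, 2.38 and 2.22 FPKM in the knockout and 3.32 and 3.24 in the wild type. The groups did not overlap, and the means were 2.31 ± 0.08 (SD, n = 3) and 3.28 ± 0.06 (SD, n = 2). The log2 fold change of -0.37 ± 0.18 (SE) did not pass (limma, adjusted p = 0.311), and with about 78 to 115 fragments per library its counting error reached 11.3%. PEX5 (chrIV:950563-952401), the general receptor for the C-terminal targeting signal and a relative of PEX9, had 28.2, 26.4 and 25.5 against 29.6 and 31.2 FPKM. It too read lower in every knockout library (-0.18 ± 0.10, limma, adjusted p = 0.345). The ratio of PEX5 to PEX9 was 12.1, 11.1 and 11.5 in the knockout and 8.92 and 9.64 in the wild type, without overlap. Of 13 ratios computed 4 did not overlap, where single genes did not overlap for 41.1% of all genes tested. No share over other ratios was computed. PEX7, the receptor for the N-terminal signal, had 28.6, 27.4 and 24.8 against 27.4 and 27.3 FPKM. Its coreceptor PEX18 had 5.58, 5.06 and 5.67 against 4.37 and 6.24 FPKM, and the related PEX21 had 31.7, 41.6 and 33.2 against 40.7 and 33.4. The groups overlapped for all 3 of these genes, and PEX21 stood at 5.35 to 9.32 times PEX18.

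Components of the docking site and of the ubiquitin ligase lay near 0. PEX13, PEX14 and PEX17 dock the loaded receptor at the membrane, and PEX8 links that complex to the ligase from the inside. PEX17 had 58.7, 53.4 and 55.7 FPKM in the knockout and 50.3 and 47.6 in the wild type. Every knockout library read above both wild-type ones, and the log2 fold change was 0.19 ± 0.09 (SE, limma, adjusted p = 0.309). PEX13 had the opposite order, with 20.7, 21.1 and 22.96 against 23.5 and 23.4 FPKM (-0.11 ± 0.10, limma, adjusted p = 0.543). PEX14 and PEX8 overlapped between the groups, at -0.05 and -0.03. The RING-finger ligase subunits PEX2 and PEX10 had log2 fold changes of 0.12 and -0.13 and overlapped between the groups. PEX2 had 89.6, 100.1 and 72.6 against 84.6 and 74.5 FPKM, and PEX10 had 32.1, 43.1 and 33.6 against 40.9 and 37.9. In both genes knockout 2 read highest of the knockout libraries. Although they act in a single complex, PEX2 read at 1.96 to 2.79 times PEX10, and each knockout ratio lay above both wild-type ratios.

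The genes of receptor recycling described here overlapped between the genotypes. PEX6 encodes an AAA ATPase that helps pull receptors out of the membrane. PEX6 had 10.9, 9.72 and 9.42 against 10.3 and 12.3 FPKM, and its groups overlapped. Its log2 fold change was -0.16 ± 0.14 (SE, limma, adjusted p = 0.542), and it was 0.07 with the trend of values with coding length removed. PEX15, which anchors the export machinery in the membrane, stood at 0.02. PEX4, the ubiquitin-conjugating enzyme, and PEX22, its anchor, stood at 0.17 ± 0.14 and 0.12 ± 0.12 (SE), with overlapping groups. PEX4 had 52.9, 72.8 and 63.4 against 58.2 and 52.6 FPKM, and PEX22 had 55.4, 48.2 and 50.9 against 53.3 and 42.1.

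**Figure D2:**
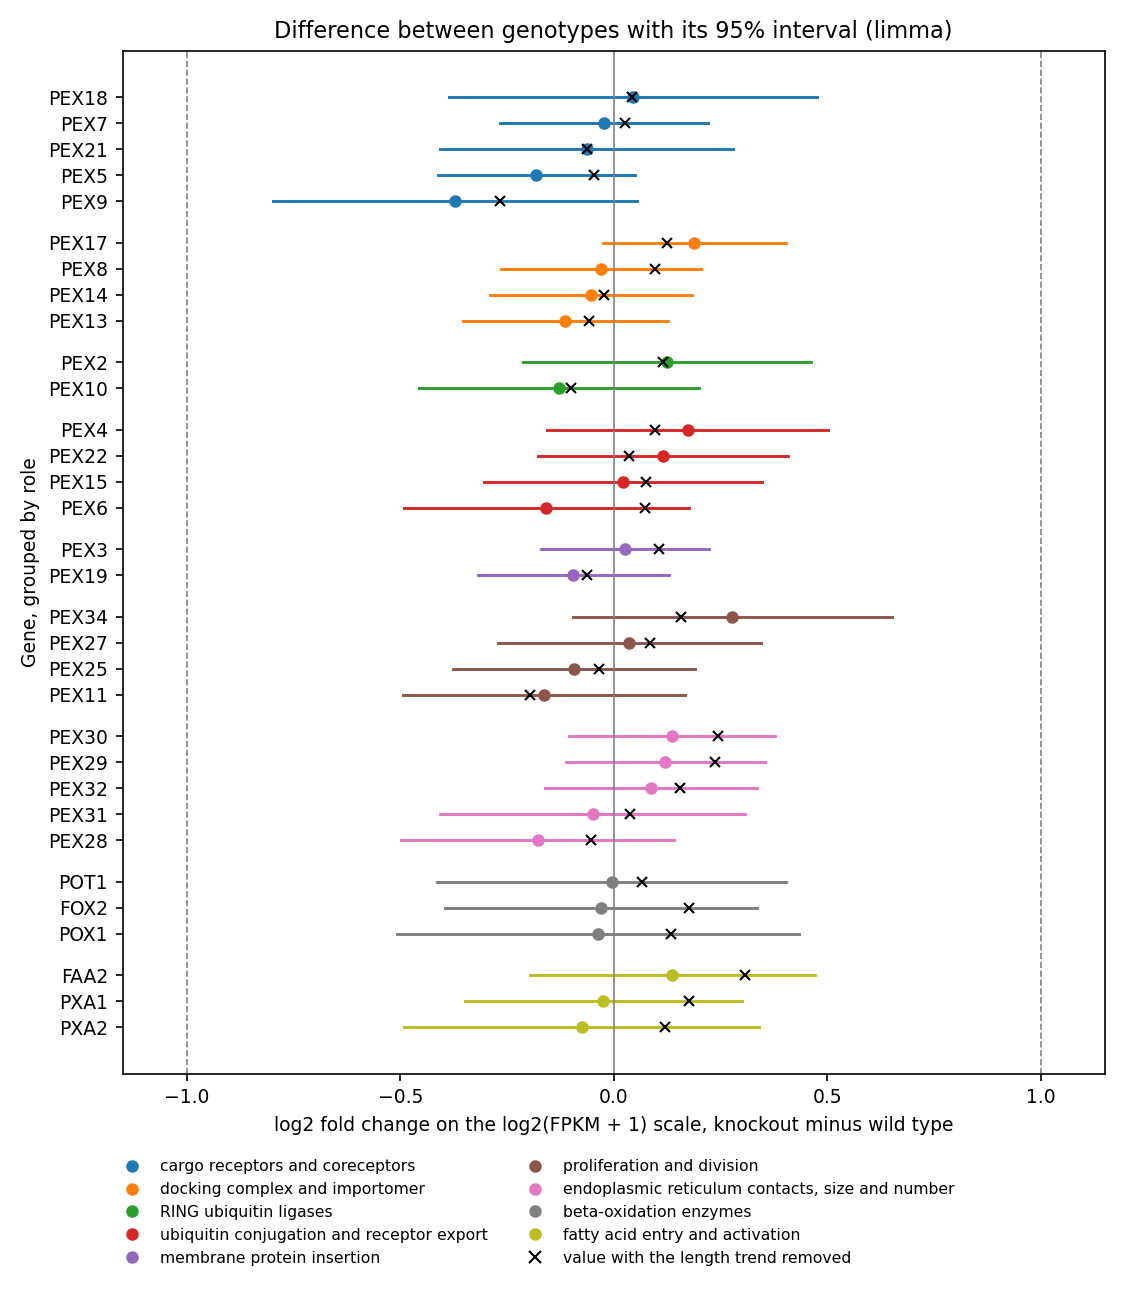
Log2 fold change of 32 of the 34 genes (dots), each with its 95% interval from limma (line), knockout minus wild type, grouped by role; black crosses give the value with the length trend removed and dashed lines mark 1 and -1. Every interval drawn crosses 0 and stays within 1 on either side.

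Genes of membrane growth and of peroxisome number followed. PEX3 and PEX19 insert membrane proteins and start new peroxisomes. PEX3 had 79.3, 76.5 and 75.6 FPKM in the knockout and 74.2 and 77.3 in the wild type, the narrowest standard error of the module at 0.08. PEX19 had 77.2, 71.96 and 83.6 against 83.0 and 82.6 FPKM. The groups overlapped for both genes. PEX11, which elongates peroxisomes before division and holds an oleate response element, had 27.7, 29.3 and 37.7 against 34.4 and 35.9 FPKM. Knockout 3 read highest of the 5 and knockout 1 lowest, so the difference of -0.16 ± 0.14 (SE, limma, adjusted p = 0.523) was within the spread of the knockout. Its relatives PEX25 and PEX27 stood at -0.09 and 0.04. PEX25 read at 1.93 to 2.28 times PEX27, and each knockout ratio lay below both wild-type ratios. PEX34 (chrIII:26925-27359), which acts with them on peroxisome number, had the most positive value of the module, 0.28 ± 0.16 (SE, limma, adjusted p = 0.371). It had 103, 81.8 and 107 against 91.0 and 69.7 FPKM, with the wild-type libraries further apart than the group means. Without wild type 1 its value was 0.47 and without wild type 2 it was 0.09.

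The proteins at contacts with the endoplasmic reticulum, which restrain peroxisome size and number, showed small values on either side of 0. PEX30 had 27.9, 27.8 and 31.5 FPKM in the knockout and 26.2 and 26.4 in the wild type, and PEX32 had 17.0, 18.4 and 17.7 against 16.7 and 16.5. For both genes each knockout library read above each wild-type library, with log2 fold changes of 0.14 ± 0.10 and 0.09 ± 0.11 (SE, limma, adjusted p = 0.474 and 0.661). PEX29, PEX31 and PEX28 stood at 0.12, -0.05 and -0.18 with overlapping groups. PEX28 had 14.1, 17.8 and 15.2 against 18.9 and 16.7 FPKM, and its relative PEX29 had 35.9, 34.8 and 31.7 against 31.9 and 30.7. The ratio of PEX29 to PEX28 was 1.95 to 2.56 in the knockout and 1.69 and 1.83 in the wild type, another that did not overlap. YGR168C, which R64 names PEX35 and which the rule on symbols did not select, had 53.9, 50.6 and 43.9 against 45.8 and 48.9 FPKM.

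Across the module the groups did not overlap for 8 of 34 genes, or 23.5%, against 41.1% of all genes tested. PEX17, PEX30, PEX32 and FAA2 read above the wild type in all knockout libraries, 4 of 34 against a background of 13.1%. PEX5, PEX9 and PEX13 were among those that read below it, 4 of 34 against a background of 28.0%. None of these counts exceeds its background. Knockout 2 read highest of the 3 knockout libraries for 17 of 34 members, and for 49.5% of all genes.

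Longer members tended to have lower values, as longer genes did over the whole table. All 34 genes have a single coding exon, and Pearson's r between log2 fold change and log2 coding length was -0.501 over the 34 members and -0.442 over 5712 genes, a description across genes that share the same libraries. Spearman's rho was -0.388 over the members and -0.517 over all genes tested. Of 8 members under 1000 bp, 6 were positive, with a median of 0.12. Of 19 members of 1000 to 2000 bp, 6 were positive, with a median of -0.03, where the median of all such genes was -0.09. Of 7 members of 2000 bp or more, 1 was positive, with a median of -0.04, where the median of all such genes was -0.22. The middle and long members thus had nearly the same median. With the length trend removed, r was 0.163 over the members, 23 of 34 were positive and the median was 0.07. Over all genes tested 2844 of 5712 were positive on that scale, with a median of -0.00078. All 6 beta-oxidation and fatty acid entry genes were positive there, FAA2 at 0.31 (limma, adjusted p = 0.413), and none was called. FAA2, PEX29 and PEX30 had an unadjusted p under 0.05 on that scale (limma), as had 656 of 5712 genes. The sign of 10 of the 34 members turned with this trend removed, and the part of length in the members was not tested beyond this.

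**Figure D3:**
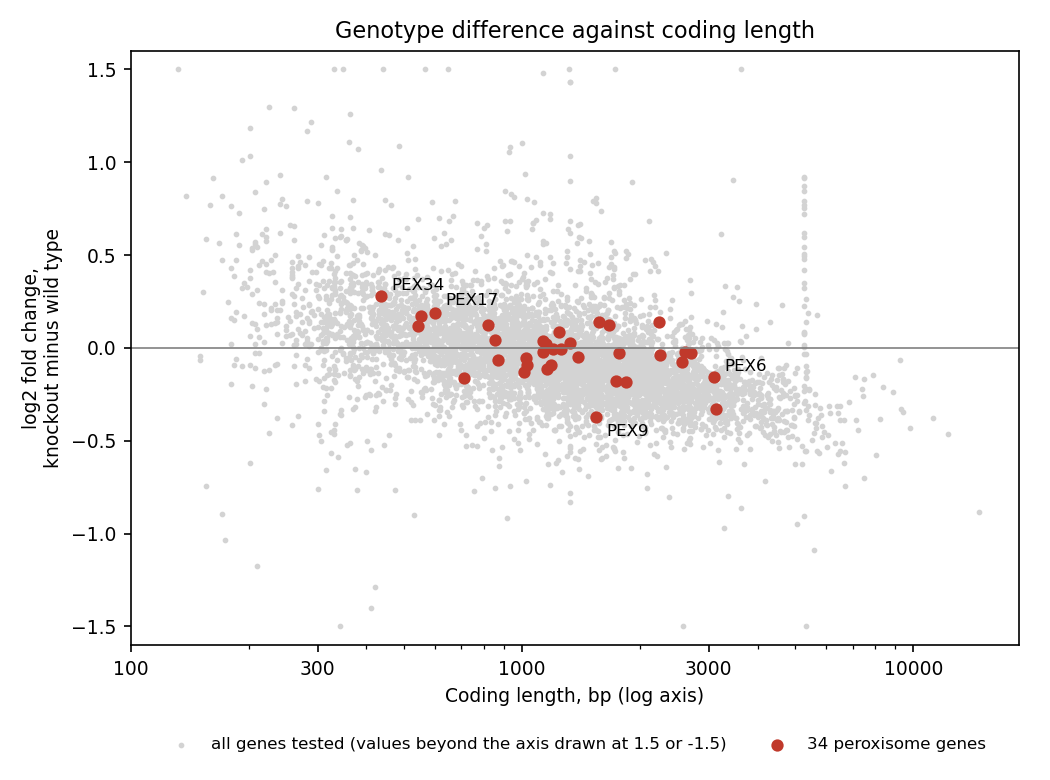
Log2 fold change, knockout minus wild type, against coding length in bp (log axis) for all genes tested (grey) and the 34 peroxisome genes (red); grey values beyond 1.5 on either side are drawn at the edge. Both clouds slope downward. The members have medians of 0.12 under 1000 bp, -0.03 at 1000 to 2000 bp and -0.04 at 2000 bp or more. PEX34 (0.28), PEX17 (0.19), PEX9 (-0.37) and PEX6 (-0.16) are labelled.

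Members with an oleate response element were mostly negative as deposited. Of the 9, 8 had a negative log2 fold change and 1, FAA2, a positive one, with a median of -0.08. Over all genes tested 3578 of 5712 were negative, with a median of -0.07, close to that of the 9. Of the 25 without the element, 13 were negative, with a median of -0.01. The summed level of the 9 genes was 122, 128 and 128 FPKM in the knockout and 135 and 137 in the wild type, without overlap. The largest levels among them were those of PEX11, PEX5 and PEX13. Their means were 31.6, 26.7 and 21.6 FPKM in the knockout and 35.2, 30.4 and 23.4 in the wild type. The 3 beta-oxidation enzymes summed to means of 20.7 and 21.1 FPKM, with overlapping groups. No share over other sums was computed. The split by the element was made after the values were seen and has no test. The 9 genes were also longer, with a median coding length of 2235 bp against 1152 bp, and 6 of them were positive with the length trend removed.

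No auxiliary gene, regulator or gene of peroxisome inheritance was called. Of 14 genes of auxiliary beta-oxidation and fatty acid handling 0 were called (limma, 1 at an unadjusted p under 0.05, against 18.6% of all genes). The median log2 fold change was 0.04. The groups did not overlap for 35.7% of them, with 3 genes above the wild type and 2 below, against 41.1% of all genes. ANT1, the carrier that supplies the peroxisome with ATP, had 48.0, 53.7 and 41.98 FPKM in the knockout and 56.9 and 60.6 in the wild type (limma, adjusted p = 0.255). The peroxisomal lipase LPX1 and the catalase CTA1 stood at -0.33 and -0.19. Of the regulators, PIP2 had 11.6, 11.9 and 9.86 against 12.7 and 15.8 FPKM, at -0.33 ± 0.15 on the log2 scale (SE, limma, adjusted p = 0.289). OAF1 and ADR1 stood at -0.20 and 0.23. With the length trend removed PIP2 was at -0.10, OAF1 turned to 0.03 and ADR1 was at 0.51 (limma, adjusted p = 0.743, 0.933 and 0.383). Of the 6 regulators 0 were called (limma, 0 at an unadjusted p under 0.05), and the groups did not overlap for 33.3% of them. Among 10 genes of inheritance, fission and pexophagy 0 were called (limma, 3 at an unadjusted p under 0.05, against 18.6% of all genes). The groups did not overlap for 6 of 10, with 3 genes above and 3 below, against 41.1% of all genes. The fission factor FIS1 had 282, 234 and 255 FPKM in the knockout and 193 and 185 in the wild type (0.44 ± 0.10 SE, limma, adjusted p = 0.155). ATG36, the receptor for peroxisome autophagy, stood at 0.36 ± 0.11, and MYO2, the myosin that carries peroxisomes to the bud, at -0.44 ± 0.13 (SE, limma, adjusted p = 0.201 and 0.182). With the length trend removed these values were 0.33 for FIS1, 0.36 for ATG36 and -0.14 for MYO2.

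Other enzymes that can reside in peroxisomes lay on both sides of 0, with 5 of 8 positive and a median of 0.09. Of these 8 genes 0 were called (limma, 3 at an unadjusted p under 0.05, against 18.6% of all genes). The groups did not overlap for 37.5% of them, against 41.1% of all genes. The nicotinamidase PNC1 had 1818, 1158 and 1767 FPKM in the knockout and 893 and 1041 in the wild type, a difference of 0.68 ± 0.21 on the log2 scale (SE, limma, adjusted p = 0.198). GPD1, the glycerol-3-phosphate dehydrogenase, had 498, 309.97 and 458 against 278 and 311 FPKM. In both genes knockout 2 read far below the other knockout libraries. CIT2, the citrate synthase of the glyoxylate cycle, had 434, 361 and 496 against 343 and 241 FPKM (limma, adjusted p = 0.214). The negative members were LYS1 at -0.26 and STR3 at -0.16, with overlapping groups, and AAT2 at -0.21, which read lower in every knockout library (limma, adjusted p = 0.463, 0.614 and 0.274 in that order for LYS1, STR3 and AAT2).

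Markers of glucose derepression had a median near that of the members. Of 12 such genes 0 were called (limma, 1 at an unadjusted p under 0.05, against 18.6% of all genes), and their median was -0.02. The glyoxylate cycle enzyme ICL1 and the invertase SUC2 stood at -0.24 and -0.12. The hexokinase HXK1, which glucose represses, had 554, 541 and 528 FPKM in the knockout and 452 and 424 in the wild type (0.31 ± 0.08 SE, limma, adjusted p = 0.179). The summed level of the 12 markers was 683, 725 and 655 FPKM in the knockout and 609 and 569 in the wild type, with HXK1 the greater part. All 12 stress markers under Msn2 and Msn4 were positive, as were 2134 of 5712 genes tested, with a median of 0.40. An unadjusted p under 0.05 (limma) was found for 7 of the 12, against 18.6% of all genes. Their groups did not overlap for 66.7%, against 41.1% of all genes. Of the 12 stress markers 1 was called, HSP26, a small heat-shock protein. It rose from 77.5 and 94.6 FPKM in the wild type to 292, 226 and 234 in the knockout (limma, adjusted p = 0.0164). HSP12 and the aldehyde dehydrogenase gene ALD3 had positive values without a call (limma, adjusted p = 0.0799 for both). Whether the members differ from the stress markers was not tested. The mating-type a markers STE2, BAR1 and AGA2 were present in all 5 libraries, and the alpha marker STE3 read 8.38 to 11.8 FPKM.

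**Figure D4:**
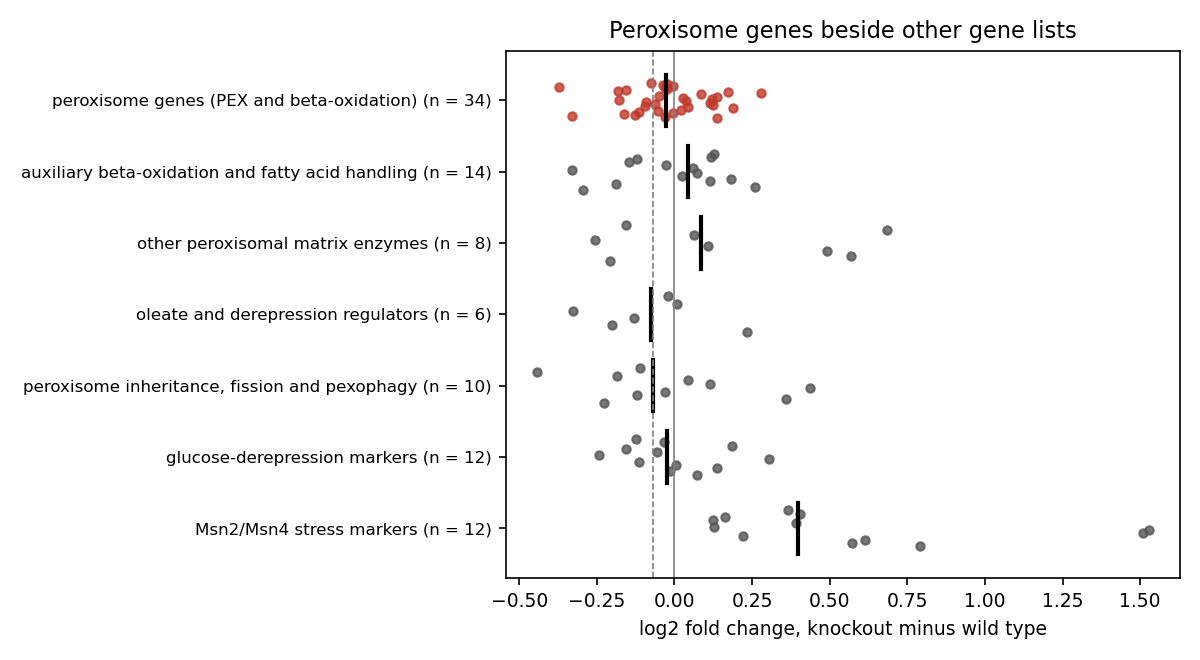
Log2 fold change, knockout minus wild type, of each gene (dot) in the peroxisome module (red) and in 6 other gene lists (grey); black bars are list medians, the solid line is 0 and the dashed line the median of all genes tested, -0.07. The peroxisome genes lie between -0.37 and 0.28 with a median of -0.03, and the stress markers reach 1.53 with a median of 0.40.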

How the data were processed

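The authors deposited FPKM per gene and library, per the file headers, in one table per strain, each library scaled on its own. Build R64, RSEM 1.3.1, DESeq2 1.4.5, Bowtie2 and HISAT2 2.1.0 are named, without their roles, per the submitters' processing notes. The sources used here give neither the annotation nor the strand setting.

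Tables were joined by gene identifier, and 5883 of 5886 matched the RefSeq R64 annotation, which has the files' build and gave positions, coding lengths and promoter windows. Values were tested with limma 3.58.1 (R 4.3.3) on log2(FPKM + 1), with trended, robust moderation and genotype as the only term. The 5712 genes averaging 1 FPKM or more over the 5 libraries entered, and p-values were adjusted by Benjamini-Hochberg over all of them. The length trend was removed per library by loess (span 0.5). The fit was tested on simulated data with planted changes of 1.5-fold and more, so smaller changes were not covered. The spread of a gene was redrawn at random in each simulated library, and genes of a library shared no deviation. Depth was estimated from steps between low FPKM values: with coding length shortened by 134 to 142 bp, 88.0% to 93.4% of values were within 0.15 of a whole fragment count, where other settings gave a median of 26.9% to 29.0%. Counting errors cover counting only.

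The members and gene lists were chosen with earlier results of these data known. All members enter the counts and medians, and 2 of them are not reported here by name. The others are given, with SUL1 and, from each other list, the 3 genes of at least 10 FPKM with the largest change. Other genes named were chosen after their values were seen. The alternatives tried were another pseudocount, no filter, equal FPKM sums, the length trend removed, the replicate number as a block, a constant prior variance, each library left out, and knockout 2 left out with the length trend removed. Protein sequences were not used here. Other software was matplotlib 3.10.9, scipy 1.17.1, numpy 2.4.6, pandas 2.3.3 and Python 3.11.15.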

Additional observations from a re-analysis of the deposited data

How the results depend on the processing

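No member was called under any of the 12 alternatives (limma), where the smallest adjusted p of a member was 0.0528, without knockout 2, and the largest value was 0.488 in size. At an unadjusted p under 0.05 (limma) there were 0 to 5 members. The 5 were without knockout 2, against 1989 of 5712 genes. With equal FPKM sums there were 3 members against 1687 genes. With the length trend removed there were 3 against 656, and with knockout 2 also left out 4 against 1475. The sign held in all 12 alternatives for 16 members, 9 negative and 7 positive. The cause of the sign changes given here was not tested. Over all genes, the 11 higher and 4 lower calls became 4 higher with equal FPKM sums, 5 and 1 with the length trend removed, 7 higher with a constant prior variance, and 195 and 93 without knockout 2 and with the length trend removed. Leaving out single libraries gave 0 to 298 higher and 0 to 598 lower, the upper ends being without knockout 2, where 1989 genes had an unadjusted p under 0.05. No gene was called higher without knockout 3, wild type 1 or wild type 2 (limma), where the unadjusted p was under 0.05 for 623, 747 and 318 genes. Without a wild-type library the remaining one was assumed to vary like the knockout. The titles number replicates in both groups, but nothing states that a number marks a shared culture. Deviations of same-numbered libraries correlated at -0.367 and -0.425. With 2 wild-type libraries the pairs of unlike number must mirror these, at 0.367 and 0.425. Whether the numbers mark a pairing was thus not tested. With the replicate block 0 genes were called higher and 0 lower (limma, 399 at an unadjusted p under 0.05). Knockout 3 was alone in its block, so the block gave the same fold changes as leaving out knockout 3.

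The median of the members moved to -0.11 with equal FPKM sums, when that of all genes moved to -0.16, and to 0.069 with the length trend removed. With equal FPKM sums PEX15, PEX18, PEX27, PEX3 and PEX32 turned negative, at -0.067, -0.034, -0.053, -0.065 and -0.00044. With the length trend removed FOX2, PXA1, PXA2, POX1 and POT1 turned positive, at 0.175, 0.175, 0.120, 0.135 and 0.065, as did PEX6, PEX8, PEX31 and PEX7, at 0.073, 0.097, 0.039 and 0.026. With knockout 2 also left out, FOX2, PXA1, PXA2 and POX1 were at 0.11, 0.24, 0.038 and 0.13, and PEX6, PEX8 and PEX7 at 0.14, 0.16 and 0.023. With the replicate block FOX2, POT1 and POX1 were at 0.045, 0.082 and 0.049, PEX31 and PEX7 at 0.045 and 0.033, and PEX15 at -0.036.

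Leaving out single libraries changed the sign of 15 members. The enzymes ranged from -0.157 to 0.097 (FOX2), -0.093 to 0.084 (POT1) and -0.081 to 0.049 (POX1), and PXA1 from -0.128 to 0.080. Among the others PEX18 ranged from -0.171 to 0.260, PEX15 from -0.159 to 0.203, PEX21 from -0.203 to 0.076, PEX27 from -0.111 to 0.183 and PEX22 from -0.050 to 0.282. PEX14 ranged from -0.117 to 0.011, PEX31 from -0.170 to 0.045, PEX8 from -0.090 to 0.030, PEX7 from -0.066 to 0.033 and PEX3 from -0.0028 to 0.055. The bound of a 1.5-fold change held for 20 of 34 members without wild type 1 and likewise without wild type 2, and the counting error of the lowest members, 11.4%, limits what could be seen there.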
